A study of Homo sapiens with 16 samples.

Results

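The genes described here encode the enzymes that build cholesterol, a group called regulators, and the enzymes that make fatty acids. The regulators are SREBF1 and SREBF2, which encode the SREBP transcription factors, INSIG1, INSIG2 and SCAP, which act on those factors, and the sterol carrier STARD4. They were chosen by name from a list of 30 genes, of which 29 were found among the 57736 genes of the count table. ACACA was not matched to a row of the table, so its expression was not analysed here, while its promoter is among those searched below. The 29 genes form 3 groups, with 19 sterol enzymes (7 from acetyl-CoA to farnesyl diphosphate and 12 from squalene to cholesterol), 6 regulators and 4 fatty acid enzymes. All 29 passed the filter on low counts.

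RNA was sequenced from the H9 line of human embryonic stem cells at 4 stages of differentiation into cortical neurons, day 0 (D0), D12, D30 and D70. TMG-treated cells received 40 µM Thiamet-G (TMG), an inhibitor of O-GlcNAcase, the enzyme that removes O-GlcNAc sugars from proteins, and control cells received the solvent DMSO, in both cases from the undifferentiated stage on. The arms are those of the titles, and results on TMG hold only if the titles are right, since a treatment tag goes against them in control replicate 2 and TMG replicate 1 of each stage, while the descriptions and the column names of the table give the same arms as the titles. Each of the 8 groups has 2 libraries, which the study calls biological replicates, so errors and p-values describe the spread between 2 libraries a group. D0 cells were undifferentiated cells grown in mTeSR1, cells up to D12 were under dual SMAD inhibition with LDN-193189 and SB-431542, and later cells were in neural medium with B27, so stage and medium cannot be told apart. In these bulk samples, fewer cells of a type and less RNA per cell cannot be told apart either.

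Cholesterol is made in the endoplasmic reticulum from acetyl-CoA through mevalonate, farnesyl diphosphate, squalene and lanosterol. When sterols in that membrane are scarce, SCAP escorts the SREBP proteins to the Golgi, where proteases free their transcription factor domain. When sterols are plentiful, INSIG1 and INSIG2 hold SCAP back. SREBP-2, the product of SREBF2, acts mainly on sterol genes, and SREBP-1, the product of SREBF1, mainly on fatty acid genes, usually together with NF-Y and Sp1 bound nearby. Neural cells make most of their own cholesterol, since lipoproteins of the blood do not cross into the brain.

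Library totals lay between 10334908 and 19836878 counts. Values below are CPM, counts scaled to a common library total, on library sizes scaled by TMM, a factor that sets aside differences in composition between libraries. The summed level of 5 stem cell markers was 2763 to 3086 CPM in the D0 libraries and 25.3 to 65.4 CPM on D30. In absolute CPM, libraries of D30 and of D70 differed most by 6 mesenchyme markers (COL1A1, COL1A2, COL3A1, LUM, DCN and PDGFRB). On D70 they differed next by 3 choroid plexus markers (TTR, KCNJ13 and CLIC6). The mesenchyme sum was 29440 CPM in TMG replicate 2 on D30, against 4513, 5279 and 5662 CPM in the other D30 libraries, with all 6 genes highest in that library. On D70 it was 45160 CPM in control replicate 2 and 58960 CPM in TMG replicate 2, against 7589 and 3833 CPM in the replicate 1 libraries. The choroid plexus sum was 9946 CPM in control replicate 1 and 2988 CPM in TMG replicate 1 on D70, against 225 and 13.5 CPM in the replicate 2 libraries, and was between 69.3 and 316 CPM on D30. Neuron markers were at 220 CPM in TMG replicate 2 on D70 and between 584 and 1213 CPM in the other D70 libraries. In replicate order, the sum of retinal pigment epithelium markers on D70 was 176 and 637 CPM in control and 120.5 and 14.4 CPM in TMG. Most of the control sum was PMEL (107 and 598 CPM in control, 96.1 and 2.31 CPM in TMG). RPE65 went the other way in control (63.7 and 1.37 CPM) and was at 20.1 and 0.0925 CPM in TMG. The sum therefore does not show which control library held more cells of this type. Progenitor markers on D70 were at 510 and 484 CPM in control and 768 and 76.95 CPM in TMG.

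Falling by D12, rising by D30 and falling by D70 in control cells, each past the 5% false discovery rate used below, was seen in 3 of the 29 genes and in 4 of 24249 genes. The share of all counts held by the 29 genes followed the same order, though it rests most on the genes with many counts, FASN and SCD (24918 and 24362 counts in control replicate 1 of D0). The 29 genes together took 0.718% and 0.400% of the counts in the control libraries of D0 and 0.210% and 0.236% in those of D12. The D30 control libraries gave 0.650% and 0.485%, and the D70 control libraries 0.231% and 0.233%. In TMG-treated cells the shares were 0.726% and 0.671% at D0 and 0.195% and 0.263% at D12, followed by 0.363% and 0.272% at D30 and 0.232% and 0.339% at D70. Control replicate 2 of D0 had the lowest share among the D0 libraries, and both TMG shares on D30 lay below both control shares.

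**Figure D1:**
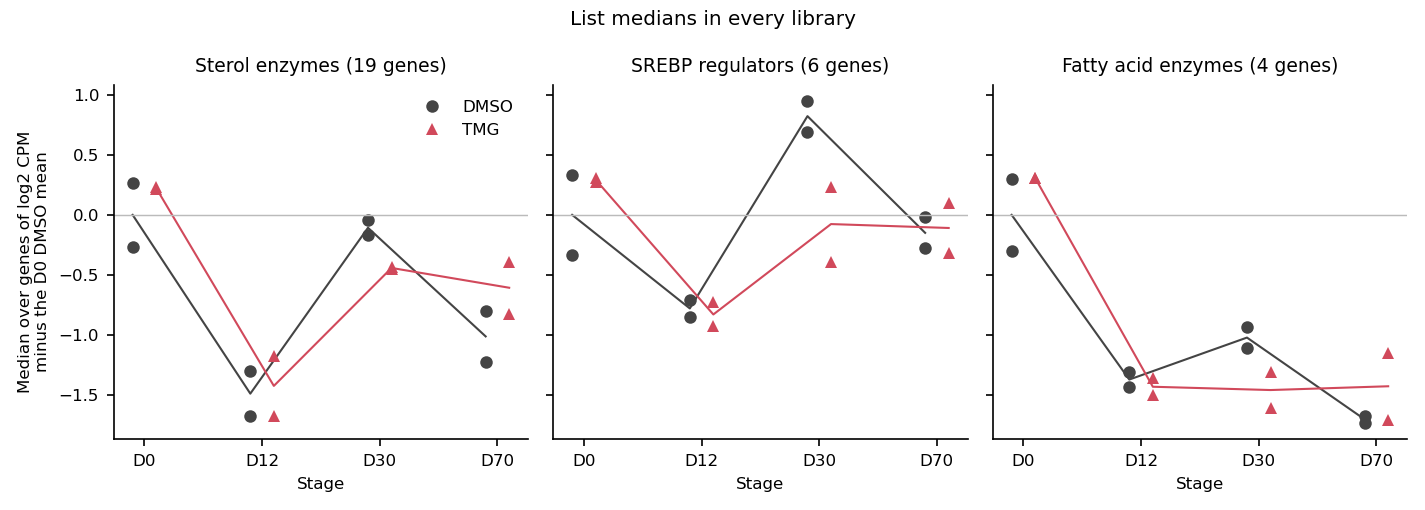
Median over the genes of each list of log2 CPM minus that gene's D0 control mean (y axis, log2 units), by stage (x axis), for 19 sterol enzymes, 6 regulators and 4 fatty acid enzymes. Each point is a library, lines join the group means, and circles are DMSO and triangles TMG. The control medians of sterol enzymes drop to -1.68 and -1.30 on D12 and return to -0.05 and -0.17 on D30, where the TMG libraries sit at -0.43 and -0.45.

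From D0 to D12, 20 of the 29 genes fell in control cells at a false discovery rate (FDR) of 5% by edgeR's quasi-likelihood test, where 9.71% of the 24249 genes tested fell. They comprised 14 of 19 sterol enzymes, 2 of 6 regulators (INSIG1 and SREBF2) and all 4 fatty acid enzymes. The median log2 fold change was -1.56 for sterol enzymes, -0.90 for regulators and -1.39 for fatty acid enzymes, and 0.003 over all genes. Without control replicate 1 of D0 the medians were -1.13 for sterol enzymes, -0.41 for regulators and -1.04 for fatty acid enzymes. In TMG-treated cells 22 genes fell, where 9.19% of all genes did, and 20 of the 22 are the genes called in control cells. SREBF1 and STARD4 were the other two. INSIG2 alone was not lower on D12 in control cells, with a log2 fold change of 0.35 ± 0.34 (standard error). Over this step the control libraries went from 2881 and 2763 CPM to 503 and 569 CPM for stem cell markers, from 1457 and 1334 CPM to 755 and 603 CPM for markers of cycling cells and from 165 and 174 CPM to 1138 and 1285 CPM for mesenchyme markers. On D12 most of the mesenchyme sum was COL1A1 (601 and 379 CPM) and COL1A2 (431 and 776 CPM). PDGFRB was at 92.6 and 96.7 CPM, COL3A1 at 8.94 and 29.2 CPM, LUM at 4.67 and 3.56 CPM and DCN at 0.0491 and 0 CPM. Progenitor markers went from 217 and 377 CPM to 1152 and 962 CPM. The part of these markers in the result was not tested.

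The steepest falls were those of DHCR7, ACAT2 and SQLE. DHCR7, which makes cholesterol from 7-dehydrocholesterol in the last step, was at 186 and 81.5 CPM in the control libraries of D0 and at 12.9 and 20.2 CPM on D12. Its log2 fold change was -3.02 ± 0.40 (8.09-fold lower, adjusted p = 0.0016 by edgeR). ACAT2, which joins acetyl-CoA units at the entry to the pathway, went from 94.0 and 70.6 CPM to 12.4 and 18.0 CPM (-2.44 ± 0.40, adjusted p = 0.00367 by edgeR). SQLE, the squalene epoxidase, went from 227 and 130 CPM to 34.2 and 46.1 CPM (-2.15 ± 0.36, adjusted p = 0.00379 by edgeR). The D0 and D12 values of these genes do not overlap. Of the exon bases of ACAT2, 17.2% also belong to TCP1 on the other strand, and with libraries that do not mark strand the reads of the 2 genes cannot be told apart there. The same holds for 5.9% of the exon bases of CYP51A1, 6.75% of those of SREBF1 and 37.7% of those of HMGCS1, whose partner there is a lowly expressed antisense RNA. FDPS shares 18.6% with RUSC1-AS1 (a mean of 16.5 CPM, against 79.3 CPM for FDPS), SREBF2 9.08% with SREBF2-AS1 (13.6 CPM) and IDI1 15% with IDI2-AS1 (0.176 CPM). STARD4, FDFT1, MVK, LSS and TM7SF2 share between 0.528% and 4.27% of their exon bases with other genes.

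Fatty acid enzymes fell as a group of 4. FASN, the fatty acid synthase, was at 1540 and 1073 CPM on D0 and at 408 and 509 CPM on D12 in control cells (log2 fold change -1.51 ± 0.24, adjusted p = 0.00322 by edgeR). SCD, which puts the first double bond into saturated fatty acids, was at 1505 and 686 CPM and then at 235 and 263 CPM (-2.14 ± 0.57, adjusted p = 0.0282 by edgeR). Both D0 libraries were above both D12 libraries for each of the 4 genes. With single control libraries left out, the median ran from -1.72 to -1.13 for sterol enzymes and from -1.23 to -0.41 for regulators. For fatty acid enzymes it ran from -1.65 to -1.04. The counts past the FDR in those fits are given at the end.

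From D12 to D30, 15 of the 29 genes rose in control cells, where 1.91% of all genes tested rose. They were 11 sterol enzymes and 4 regulators (INSIG1, INSIG2, SREBF2 and STARD4), and no fatty acid enzyme passed. The median log2 fold change was 1.74 for sterol enzymes, 1.47 for regulators and 0.29 for fatty acid enzymes, with -0.04 over all genes. Among sterol enzymes HMGCS1, MVD, IDI1, FDPS, FDFT1, SQLE, CYP51A1, MSMO1, HSD17B7, SC5D and DHCR7 passed. PMVK (0.01 ± 0.27), LBR (-0.32 ± 0.34), TM7SF2 (-0.10 ± 0.58) and EBP (0.20 ± 0.32) had the smallest differences. Falling by D12 and then rising by D30, each past the FDR, was seen in 12 of the 29 genes and in 85 of 24249 genes, or 0.351%. Over this step the mesenchyme markers went from 1138 and 1285 CPM to 4513 and 5279 CPM in control cells and the markers of cycling cells from 755 and 603 CPM to 255 and 236 CPM, and their part in the result was not tested.

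INSIG1, HMGCS1 and MSMO1 rose most. INSIG1 (ENSG00000186480, GRCh37 chr7:155089486-155101945, plus strand), itself a classic SREBP target as well as an inhibitor of SREBP processing, was at 14.4 and 19.8 CPM on D12 and at 238 and 160 CPM on D30 (log2 fold change 3.54 ± 0.45, adjusted p = 0.0068 by edgeR). HMGCS1 (ENSG00000112972, chr5:43287572-43313614, minus strand), which makes the precursor of mevalonate, was at 66.5 and 64.3 CPM and then at 946 and 534 CPM (3.50 ± 0.45, 11.3-fold, adjusted p = 0.0068 by edgeR). MSMO1 (ENSG00000052802, chr4:166248819-166264316, plus strand), a C4-methyl sterol oxidase, was at 22.7 and 37.3 CPM and then at 418 and 204 CPM (3.37 ± 0.54, adjusted p = 0.0126 by edgeR). For all 3 genes the lower D30 control value was also above the higher D0 control value, 276 CPM for HMGCS1, 132 CPM for MSMO1 and 89.7 CPM for INSIG1.

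Other members of the group rose by smaller factors. IDI1 (ENSG00000067064, chr10:1085092-1095059, minus strand), which interconverts the 2 isoprenoid building blocks, went from 19.9 and 23.3 CPM to 245 and 138 CPM (3.15 ± 0.39, adjusted p = 0.0068 by edgeR). FDFT1, the squalene synthase and the first enzyme committed to sterols, went from 58.9 and 58.0 CPM to 313 and 243 CPM (2.25 ± 0.25, adjusted p = 0.00609 by edgeR). SREBF2 (ENSG00000198911, chr22:42229109-42303310, plus strand) went from 206 and 232 CPM to 450 and 469 CPM (1.06 ± 0.20, adjusted p = 0.0209 by edgeR). The replicates of SREBF2 differed little from each other on both days, while those of HMGCS1, IDI1 and MSMO1 on D30 lay well apart.

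Of the fatty acid enzymes 0 of 4 passed at this step. FASN was at 408 and 509 CPM on D12 and at 574 and 628 CPM on D30 (0.39 ± 0.23, adjusted p = 0.381 by edgeR), and ACLY, which makes cytosolic acetyl-CoA from citrate, had a log2 fold change of -0.11 ± 0.29. SCD (ENSG00000099194, chr10:102106990-102124583, plus strand) went from 235 and 263 CPM to 1437 and 900 CPM, a log2 fold change of 2.23 ± 0.57 with an adjusted p of 0.0585 by edgeR and 0.00118 by DESeq2. With single control libraries left out, the median ran from 1.23 to 2.07 for sterol enzymes and from 1.23 to 1.65 for regulators. For fatty acid enzymes it ran from 0.17 to 0.41. The counts past the FDR depended on the library left out and are given at the end.

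In TMG-treated cells 0 of the 29 genes passed from D12 to D30 by edgeR, where 0.388% of all genes rose. By DESeq2 10 genes rose, where 3.38% of the genes it tested did. Before adjustment 13 were higher by edgeR at p under 0.05, where 7.86% of all genes were. The median log2 fold change was 0.84 for sterol enzymes, 0.59 for regulators and 0.01 for fatty acid enzymes. INSIG1 was at 19.2 and 24.5 CPM on D12 and at 130 and 60.0 CPM on D30 (2.12 ± 0.42, adjusted p = 0.0592 by edgeR), and HMGCS1 was at 68.7 and 97.2 CPM and then at 476 and 208 CPM (2.04 ± 0.42, adjusted p = 0.0643 by edgeR). SREBF2 was at 220 and 271 CPM and then at 306 and 264 CPM, values that overlap. Whether the change differs between the arms is the test of the difference given below with the D30 comparison.

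**Figure D2:**
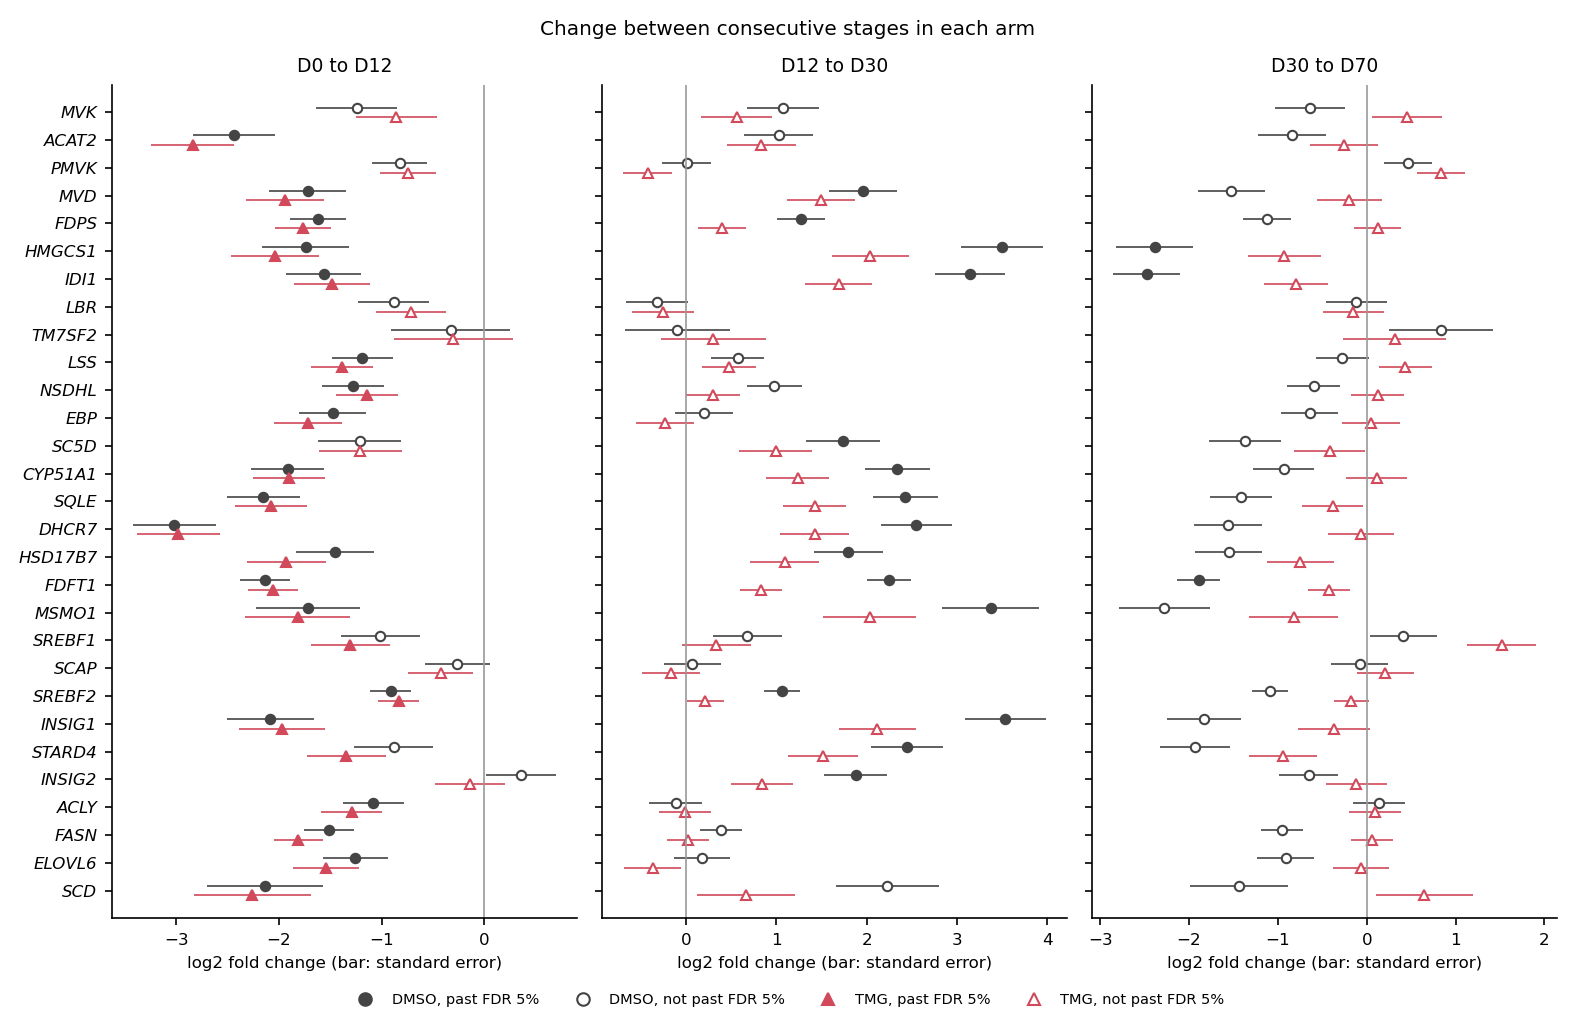
Log2 fold change between consecutive stages (x axis, with its standard error as a bar) of the 29 genes (y axis), for DMSO (circles) and TMG (triangles). Filled symbols passed the 5% FDR by edgeR: 20 and 22 genes from D0 to D12, 15 and 0 from D12 to D30, and 3 and 0 from D30 to D70, in DMSO and in TMG.

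From D30 to D70, 3 genes fell in control cells, IDI1, HMGCS1 and FDFT1, where 0.0784% of all genes tested fell. IDI1 went to 39.5 and 29.3 CPM (log2 fold change -2.48 ± 0.38, 5.56-fold lower, adjusted p = 0.0272 by edgeR). HMGCS1 went to 163 and 120 CPM (-2.39 ± 0.43, adjusted p = 0.0484 by edgeR), and FDFT1 to 82.0 and 67.6 CPM (-1.89 ± 0.24, adjusted p = 0.0181 by edgeR). The D70 values of all 3 lay below both D30 control values. In all 25 genes were lower on D70, with medians of -1.12 for sterol enzymes, -0.87 for regulators and -0.93 for fatty acid enzymes and 0.07 over all genes. DESeq2 called 14 of them lower, where it called 2.95% of the genes it tested. The number by edgeR was 0 in a fit of the 4 libraries alone, for which the share of all genes is not given here. With single control libraries left out, the median of sterol enzymes ran from -1.28 to -0.87. The counts past the FDR in those fits are given at the end. Without both D70 libraries of replicate 1, the pair with high choroid plexus markers, 27 genes were lower. The log2 fold changes were then -2.71 for IDI1, -2.63 for HMGCS1 and -2.04 for FDFT1. Without both D70 libraries of replicate 2, 24 genes were lower, with a median of -1.01 for sterol enzymes. Mesenchyme markers went from 4513 and 5279 CPM on D30 to 7589 and 45160 CPM on D70 in control cells. The part of these markers in the result was otherwise not tested. In TMG-treated cells 0 genes fell, where 0.00412% of all genes did. Before adjustment 3 genes were lower and 2 higher at p under 0.05 by edgeR, where 4.51% of all genes were lower and 6.45% higher. By DESeq2 1 gene passed there, SREBF1, which was higher, as were 1.38% of the genes it tested.

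By sign alone, down, up and down over the 3 steps, 23 of 29 genes followed this order in control cells, where 10.6% of all genes did, and 14 of 29 in TMG-treated cells, where 11.1% of all genes did. The exceptions in control cells were PMVK, LBR, TM7SF2, INSIG2, SREBF1 and ACLY. SREBF1 was at 98.6 and 63.4 CPM at first, 47.7 and 32.6 CPM by D12, 55.1 and 73.6 CPM by D30 and 85.8 and 85.1 CPM by D70 in control cells, so its D70 values were above its D30 values where those of SREBF2 were below.

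Per kilobase of exon, SCD, FASN and ACLY had the 3 highest mean levels in control cells on D0, D12 and D70. SCD stood highest on D0 (209 ± 110 CPM per kb, SD) and on D30 (223 ± 72.4) in control cells, followed on D0 by FASN (140 ± 35.4) and ACLY (73.5 ± 11.7). The gap between SCD and FASN on D0 is smaller than the SD of SCD. On D30 HMGCS1 (112 ± 43.98 CPM per kb, SD) and MSMO1 (109 ± 53.1) came next and did not differ beyond their spread, ahead of FASN (64.5 ± 4.16). The mean of HMGCS1 moved from rank 9 of 29 on D0 to rank 12 on D12, rank 2 on D30 and rank 8 on D70. MVK, the mevalonate kinase, was lowest in control cells at all 4 stages, with 2.14 CPM per kb on D0 and 0.903 on D12.

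**Figure D3:**
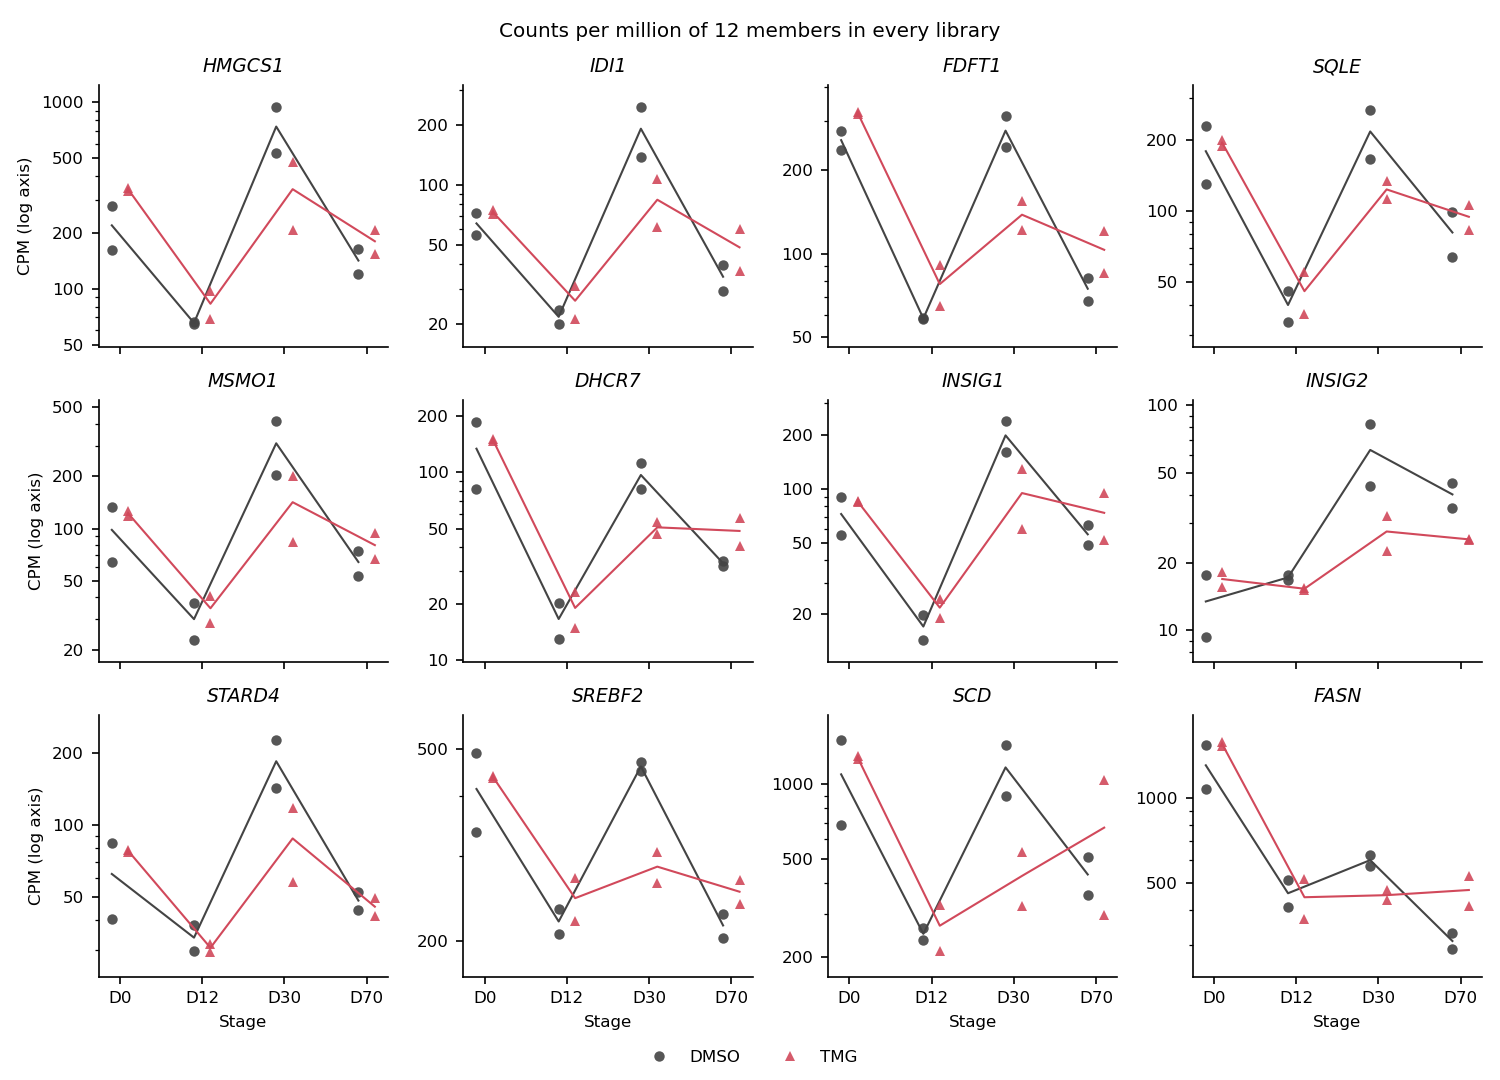
CPM on a log axis (y axis) by stage (x axis) for 12 of the genes, with each library as a point (circles DMSO, triangles TMG) and lines through the group means. For FDFT1 both TMG libraries of D30 (155 and 122 CPM) lie below both control libraries (313 and 243 CPM), and the control libraries of FASN are at 574 and 628 CPM on D30 after 408 and 509 CPM on D12.

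Since 15 of these genes rose from D12 to D30, stretches from the promoters of 6 of them and of SCD, which did not pass by edgeR, are shown here, picked as ones that hold the box of NF-Y, a partner of SREBP. CYP51A1 and INSIG2 rose as well and hold no such box. RefSeq promoters (GRCh38.p14, 250 bases before to 50 after the start) were at hand for 26 of the 30 listed genes, 7 of them with several starts, and none was at hand for ACAT2, FDFT1, SQLE and FASN. The 7 stretches below run from 15 bases before the first to 15 after the last match upstream of 1 start, with CCAAT, the box of NF-Y, or its reverse complement ATTGG in capitals, and in SREBF2 also a sterol regulatory element.
HMGCS1, chr5:43313493-43313582, minus strand: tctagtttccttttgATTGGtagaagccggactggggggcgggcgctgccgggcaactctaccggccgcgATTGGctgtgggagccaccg
IDI1, chr10:1048954-1049033, minus strand: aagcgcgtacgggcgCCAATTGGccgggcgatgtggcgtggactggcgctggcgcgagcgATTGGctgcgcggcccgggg
MSMO1, chr4:165327469-165327654, plus strand: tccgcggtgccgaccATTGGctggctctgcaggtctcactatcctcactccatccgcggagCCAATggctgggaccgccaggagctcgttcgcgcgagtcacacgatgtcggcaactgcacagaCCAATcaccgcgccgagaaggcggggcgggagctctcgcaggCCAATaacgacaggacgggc
INSIG1, chr7:155297693-155297727, plus strand: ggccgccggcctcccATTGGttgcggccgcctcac
STARD4, chr5:111512646-111512711, minus strand: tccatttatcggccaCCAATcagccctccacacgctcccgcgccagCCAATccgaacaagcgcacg
SREBF2, chr22:41832957-41833018, plus strand: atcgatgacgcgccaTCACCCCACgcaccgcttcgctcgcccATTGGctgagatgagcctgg
SCD, chr10:100346989-100347066, plus strand: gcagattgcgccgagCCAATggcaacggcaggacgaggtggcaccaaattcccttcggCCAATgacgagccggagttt

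The 6 genes printed above that rose by D30, HMGCS1, IDI1, MSMO1, INSIG1, STARD4 and SREBF2, were picked for holding a CCAAT box. That they hold it is therefore no result. MSMO1 holds 4. SCD holds 2. CCAAT, on either strand, was in the promoters of 19 of 26 genes (73.1%), ACACA among them. It was in 39.7% of 27305 genes with a promoter and 42.1% of 15843 protein-coding genes. Among genes that rose from D12 to D30 in control cells and have a promoter, 11 of 13 hold it (all but CYP51A1 and INSIG2), and among those that did not pass, 7 of 12. The sterol regulatory element in the narrow form TCACNCCAC was in 1 gene, SREBF2, and in 1.39% of all genes. GGGCGG, an Sp1 box, was in 24 of 26 genes (92.3%) and in 48.3% of all and 64.3% of protein-coding genes. CACGTG, an E-box, was in 4 genes (15.4%) and in 8.77% of all genes. The 4 motifs were searched on both strands, none contains another, and a match is only a run of letters.

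For TMG on D0 and D12, by edgeR 0 of 29 passed the FDR on either day, as did 0% of all genes on D0 and 0% on D12, and DESeq2 called 0 of the 29 on both days. At an unadjusted p under 0.05 there were 0 of 29 on both days, where 1.26% of all genes on D0 and 2.48% on D12 reached it. In a fit of the 4 libraries alone, 3 genes were higher and 1 lower on D0 at that p, and with a block for replicate number 1 was higher on D0. Some genes also reached it with single libraries left out. The shares of all genes in these fits are not given here. On D0, 27 of 29 genes had a higher mean in TMG and the median difference was 0.23 on the log2 scale, beside the low values of control replicate 2. Without that library 11 of 29 were higher, with a median of -0.06, and without control replicate 1 the median was 0.58. On D12, 20 of 29 were higher, with a median of 0.12. TMG replicate 2 of D12 differed from the other D12 libraries in its marker sums, with 440 CPM for the oligodendrocyte lineage (117 to 149 CPM in the others), 1894 CPM for mesenchyme (1138 to 1285 CPM), 891 CPM for cycling cells (562 to 755 CPM) and 598 CPM for progenitors (960 to 1152 CPM). Without it, 7 were higher and 22 lower, with a median of -0.15, and without control replicate 1, 14 were higher and 15 lower, with a median of -0.01. SREBF2, for example, was at 489 and 336 CPM in control and 438 and 436 CPM in TMG on D0, and at 206 and 232 CPM and 220 and 271 CPM on D12, all overlapping.

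On D30, 24 of 29 genes had a lower mean in TMG-treated than in control cells, with all 6 regulators, 15 of 19 sterol enzymes and 3 of 4 fatty acid enzymes among them. The median log2 fold change was -0.66 for sterol enzymes, -0.88 for regulators and -0.50 for fatty acid enzymes, and 0.01 over all genes. In 21 of 29 genes both TMG libraries lay below both control libraries, where 21.0% of all genes tested were so placed. None passed the FDR by edgeR (0 of 29, with 0% of all genes). Before adjustment, 14 genes were lower and 0 higher at p under 0.05 by edgeR, where 4.89% of all genes were lower and 7.10% higher. DESeq2 called 3 genes, FDFT1, SREBF2 and INSIG2, where it called 3.22% of the genes it tested.

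Among the early enzymes, HMGCS1 was at 946 and 534 CPM in control and at 476 and 208 CPM in TMG (log2 fold change -1.12 ± 0.41, adjusted p = 0.328 by edgeR). IDI1 was at 245 and 138 CPM and at 106 and 61.6 CPM (-1.19 ± 0.36, adjusted p = 0.258 by edgeR). FDPS, which makes farnesyl diphosphate, was at 107 and 94.1 CPM and at 59.7 and 57.5 CPM (-0.77 ± 0.27, adjusted p = 0.295 by edgeR). In all 3 genes the groups did not overlap. MVK (0.01 ± 0.39) and ACAT2 (-0.05 ± 0.38) had differences near 0, with overlapping libraries.

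Among the late enzymes, FDFT1 was at 313 and 243 CPM in control and at 155 and 122 CPM in TMG, a log2 fold change of -1.01 ± 0.24 (2.01-fold lower, adjusted p = 0.188 by edgeR and 0.00848 by DESeq2). Of the 29 genes it had the lowest p by edgeR. SQLE was at 268 and 165 CPM and at 134 and 112 CPM (-0.81 ± 0.34), and CYP51A1, which demethylates lanosterol, at 199 and 114 CPM and at 88.4 and 89.8 CPM (-0.81 ± 0.34). MSMO1 was at 418 and 204 CPM and at 201 and 83.1 CPM (-1.13 ± 0.50), so its nearest values almost touched. DHCR7 was at 112 and 81.3 CPM and at 54.7 and 47.2 CPM (-0.93 ± 0.38). HSD17B7 was at 35.2 and 29.4 CPM and at 23.0 and 9.37 CPM (1.99-fold lower), and its named pseudogenes together held 31.8% as many counts, so its values are uncertain. For these 5 genes after FDFT1 the adjusted p by edgeR was between 0.336 and 0.406. LSS, TM7SF2 and LBR went the other way, at 0.03 ± 0.30, 0.08 ± 0.58 and 0.39 ± 0.34, and LSS and TM7SF2 changed sign when single libraries were left out.

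All 6 regulators were lower on D30 without overlap. INSIG2 was at 82.7 and 43.96 CPM in control and at 32.4 and 22.6 CPM in TMG (-1.20 ± 0.34, adjusted p = 0.237 by edgeR and 0.0376 by DESeq2). SREBF2 was at 450 and 469 CPM and at 306 and 264 CPM (-0.69 ± 0.20, adjusted p = 0.248 by edgeR and 0.0308 by DESeq2). INSIG1 was at 238 and 160 CPM and at 130 and 60.0 CPM (-1.07 ± 0.41). STARD4, which carries sterols between membranes, was at 227 and 142 CPM and at 118 and 57.7 CPM (-1.07 ± 0.38). Both transcripts of the sterol-sensing brake, INSIG1 and INSIG2, and the factor they restrain were all lower in both TMG libraries than in both control libraries. SREBF1 was at 55.1 and 73.6 CPM and at 47.0 and 54.0 CPM (-0.35 ± 0.38), and SCAP differed by -0.44 ± 0.32.

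Of the fatty acid enzymes, SCD was at 1437 and 900 CPM in control and at 531 and 322 CPM in TMG (-1.46 ± 0.55, 2.74-fold lower, adjusted p = 0.343 by edgeR), the largest difference of the 29 genes. FASN was at 574 and 628 CPM and at 469 and 433 CPM (-0.41 ± 0.23, adjusted p = 0.518 by edgeR). ELOVL6, which elongates palmitate, differed by -0.59 ± 0.32. ACLY was higher, at 0.27 ± 0.29, with both TMG libraries above both control libraries.

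TMG replicate 2 of D30, the library with high mesenchyme markers, had the lower value of the TMG pair for every gene at an unadjusted p under 0.05 except CYP51A1. Without it 27 of 29 genes were lower in TMG, with medians of -0.61 for sterol enzymes and -0.60 for regulators. The log2 fold change was then -0.84 for FDFT1, -0.59 for SREBF2, -0.97 for INSIG2, -0.64 for HMGCS1 and -1.14 for SCD. Without control replicate 1, 25 genes were lower, with medians of -0.42 for sterol enzymes and -0.69 for regulators. The log2 fold change was then -0.82 for FDFT1, -0.72 for SREBF2, -0.68 for INSIG2 and -0.65 for HMGCS1. Without TMG replicate 1, 23 genes were lower, and without control replicate 2, 25 were. The number at an unadjusted p under 0.05 changed with the library left out. Shares of all genes in these fits are not given here. Neuron markers summed to 563 and 677 CPM in control and 801 and 988 CPM in TMG on D30, and markers of cycling cells to 255 and 236 CPM and 315 and 562 CPM. Among stem cell markers, POU5F1 was at 0.0940 and 0.402 CPM in control and 9.13 and 5.49 CPM in TMG. NANOG was at 0.188 and 0.151 CPM and 1.07 and 1.23 CPM, and TDGF1 at 0.0940 and 0.251 CPM and 4.76 and 1.23 CPM. LIN28A and DPPA4, which held most of the control sum, overlapped between the arms. The part of these markers in the result was not tested.

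The differences between stages in what TMG did are the same contrasts as the differences between arms in the stage changes. From D12 to D30, 26 of 29 genes had a smaller rise or larger fall in TMG than in control, with a median difference of -0.71 on the log2 scale. By edgeR 0 passed, with 0% of all genes, and DESeq2 called 0 of the 29. At an unadjusted p under 0.05, 7 genes were lower, where 1.59% of all genes were. They were HMGCS1 (-1.46 ± 0.58), IDI1 (-1.46 ± 0.51), FDPS (-0.87 ± 0.38), FDFT1 (-1.42 ± 0.33), CYP51A1 (-1.10 ± 0.49), INSIG1 (-1.42 ± 0.58) and SREBF2 (-0.85 ± 0.28).

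From D30 to D70 the difference went the other way, and 26 of 29 genes had a positive one, with a median of 0.98. None passed by edgeR (0 of 29 and 0% of all genes), and 10 were higher at p under 0.05 before adjustment, where 1.61% of all genes were. DESeq2 called 1 gene, FDFT1 (1.51, adjusted p = 0.0366 by DESeq2), where it called 0.114% of the genes it tested. FDFT1 dropped between D30 and D70 from 313 and 243 CPM to 82.0 and 67.6 CPM in control cells, and in TMG it was at 155 and 122 CPM and then at 85.5 and 121 CPM. Both differences use the same D30 libraries, so they are not separate observations.

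On D70, 24 of 29 genes had a higher mean in TMG, with medians of 0.34 for sterol enzymes, 0.07 for regulators and 0.43 for fatty acid enzymes. By edgeR 0 passed, with 0% of all genes, and DESeq2 called 0 of the 29. Before adjustment, 4 genes were higher and 0 lower at p under 0.05 by edgeR, where 2.61% of all genes were higher. In 9 genes both TMG libraries lay above both control libraries, where 9.77% of all genes did. INSIG2 (-0.66 ± 0.34) and HSD17B7 (-0.19 ± 0.38) had both TMG libraries below both control libraries. With a block for replicate number, 4 genes were higher and 2 lower at that p by edgeR. For neither of these results is the share of all genes given here, so they cannot be told apart from the background. MVK was at 10.9 and 11.2 CPM in control and 20.3 and 27.1 CPM in TMG (1.10 ± 0.40), and MVD, which decarboxylates diphosphomevalonate, at 30.4 and 22.8 CPM and 36.5 and 61.1 CPM (0.88 ± 0.37). LSS, which closes the sterol rings, was at 82.9 and 81.7 CPM and 99.2 and 174 CPM (0.73 ± 0.30), and FASN at 330 and 290 CPM and 413 and 528 CPM (0.60 ± 0.24). The adjusted p of these 4 genes by edgeR was between 0.884 and 0.894.

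TMG replicate 2 held the higher TMG value for each of those 4 genes. SREBF1 was at 79.8 CPM in TMG replicate 1 and 210 CPM in replicate 2, and SCD at 296 and 1040 CPM, against 85.8 and 85.1 CPM and 357 and 508 CPM in control. Without both replicate 2 libraries of D70, the pair with high mesenchyme markers, 11 of 29 genes were higher in TMG. The medians were then -0.02 for sterol enzymes, -0.21 for regulators and 0.01 for fatty acid enzymes. MVK was then at 0.91, MVD at 0.27, LSS at 0.26 and FASN at 0.33 on the log2 scale, and SREBF1 and SCD were below 0. Without both replicate 1 libraries, the pair with high choroid plexus markers, 26 of 29 genes were higher. The medians were then 0.80 for sterol enzymes and 0.28 for regulators. The control and TMG libraries left there also differed in the sums of retinal pigment epithelium markers (637 and 14.4 CPM) and progenitor markers (484 and 76.95 CPM). Of the former sums, PMEL held 598 and 2.31 CPM. Each of these fits compares 1 library with 1, and the part of the markers was otherwise not tested.

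**Figure D4:**
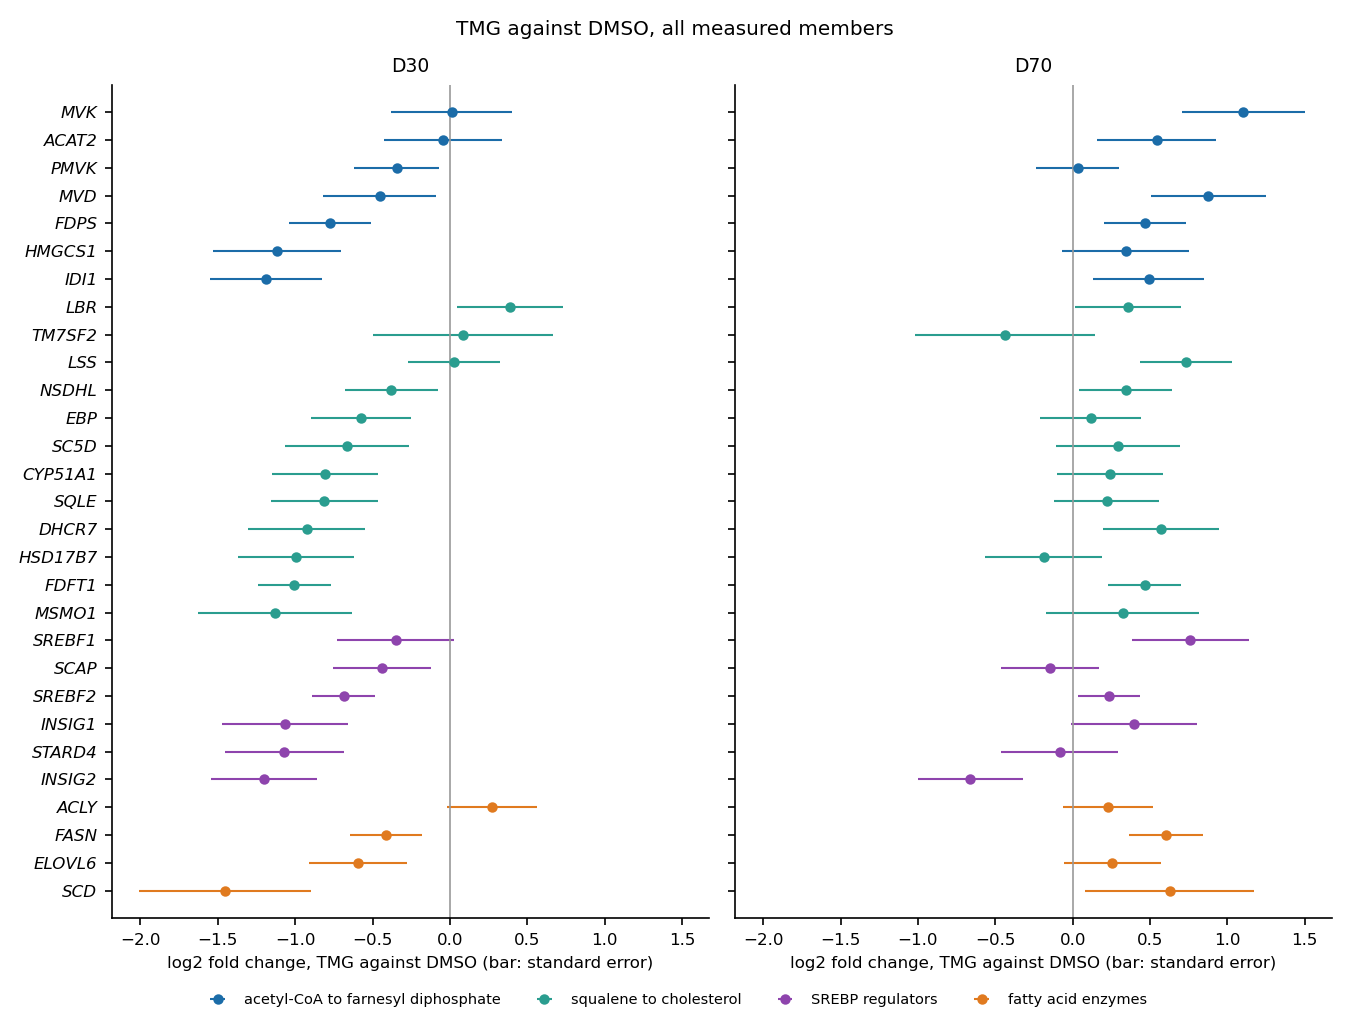
Log2 fold change of TMG against DMSO (x axis, with its standard error as a bar) for the 29 genes (y axis, ordered within each role by the D30 value) on D30 and on D70. On D30 24 of 29 points lie below 0, and on D70 24 of 29 lie above 0.

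Other genes of the pathway, 31 in all, were taken from a list of SREBP processing factors and cofactors, further SREBP targets, genes of sterol efflux, storage and traffic, and the isoprenoid branch. From D0 to D12 in control cells 8 fell and 4 rose past the FDR, where 9.71% of all genes fell and 6.97% rose. Of these, ABCG1, an exporter of cholesterol (-3.02 ± 0.69), SLC25A1, the mitochondrial citrate carrier (-1.72 ± 0.31), and MYLIP, a ubiquitin ligase induced by sterols (-1.72 ± 0.47), fell most. Among those past the FDR, CYP46A1, the neuronal cholesterol 24-hydroxylase (2.51 ± 0.39), LPIN1 (1.18 ± 0.18) and SOAT1, which esterifies cholesterol (1.13 ± 0.27), rose most. From D12 to D30, where 1.91% of all genes rose, 3 rose and 0 fell, namely ABCG1 (4.12 ± 0.71), the elongase ELOVL5 (1.66 ± 0.34) and the oxysterol-binding protein OSBP (1.12 ± 0.20). DESeq2 called 11 of the 31 higher and 0 lower at this step, where it called 7.04% of the genes it tested higher, and before adjustment 15 were higher and 1 lower at p under 0.05 by edgeR, beside the 9.88% of all genes that were higher. From D30 to D70, 0 passed by edgeR. Before adjustment 6 were lower and 2 higher at p under 0.05, where 7.58% of all genes were lower and 10.8% higher, and DESeq2 called 6, all lower, where it called 2.95% of the genes it tested lower.

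For TMG on D30, 19 of the 31 genes had a lower mean, with a median log2 fold change of -0.20, and 0 passed by edgeR while DESeq2 called 2, beside 3.22% of the genes it tested. Before adjustment, 8 were lower and 1 higher at p under 0.05 by edgeR, beside 4.89% and 7.10% of all genes. OSBP was at 199 and 152 CPM in control and at 106 and 79.0 CPM in TMG (-0.92 ± 0.20, adjusted p = 0.168 by edgeR and 0.00276 by DESeq2). FADS1 (-0.78 ± 0.22), FADS2 (-0.94 ± 0.29) and ELOVL5 (-1.07 ± 0.34), which desaturate and elongate polyunsaturated fatty acids, were lower too. So were RDH11 (-0.60 ± 0.27), the lysosomal cholesterol exporter NPC1 (-1.10 ± 0.38), the oxysterol receptor NR1H3 (-0.77 ± 0.35) and the NF-Y subunit NFYA (-0.39 ± 0.14), which was at 47.8 and 46.6 CPM in control and 36.7 and 35.3 CPM in TMG. MYLIP was higher (1.33 ± 0.47), with 10.7 and 13.4 CPM in control and 13.02 and 47.8 CPM in TMG, the high value being that of replicate 2.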

How the data were processed

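RNA-seq of 16 libraries was analysed, 2 for each of 8 groups of stage and treatment. Reads had been mapped to hg19 by Bowtie2, and for 57736 Ensembl genes (GRCh37.p13) the authors deposited RSEM 1.2.12 estimated counts, without normalization. The table holds whole numbers, and how they were rounded is not given in the sources used here. Libraries were grouped by title. The treatment tag follows the replicate number, so in control replicate 2 and TMG replicate 1 of each stage, 8 libraries, it names the other arm than the title, the description and the column name, which give the same arm in all 16. The study's methods name DESeq2, used here as an alternative.

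Counts were tested with edgeR 4.0.16 (quasi-likelihood F-test, robust fit, TMM factors) in R 4.3.3, with 1 mean per group over 16 libraries and 8 residual degrees of freedom. filterByExpr (minimum count 10, minimum total 15) kept 24249 genes. P-values were adjusted by Benjamini-Hochberg over all genes tested, within each of 13 comparisons, at an FDR of 5%. A standard error is the log2 fold change over the root of F. Log2 CPM used a prior count of 2. Alternatives were DESeq2 1.42.0, RLE factors, fits of the compared groups alone, no filter, a block for replicate number and leaving out single libraries, where the lone library left is assumed to vary like the other groups. The fits were tested on simulated counts.

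Members and lists were chosen with earlier results of these data known. Values in every library are given for members at an unadjusted p under 0.05 for TMG at any stage, the 3 members that rose and the 3 that fell most past the FDR between control stages, and 9 members fixed by name (FDFT1, IDI1, HMGCS1, SQLE, INSIG1, SREBF1, SREBF2, SCD and FASN). Symbols were matched to Ensembl identifiers by a table of GENCODE names. Positions and exon lengths are of GENCODE v44 lifted to GRCh37, not the annotation used for counting. A gene with several RefSeq starts holds a motif if any of its windows does, and the printed stretches are of 1 start each, the only start for genes with 1, and for HMGCS1 and IDI1 a start whose window holds the box.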

Additional observations from a re-analysis of the deposited data

Results flagged for a closer look

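FDFT1 stood out because what TMG did on D70 differed from what it did on D30, by 1.513 on the log2 scale with an adjusted p of 0.0366 by DESeq2. By edgeR the same difference was 1.47 ± 0.33 with an unadjusted p of 0.00104 over 24249 genes and an adjusted p of 1 with all libraries, while without both D70 replicate 1 libraries it passed the FDR by edgeR. The 4 control values of the 2 stages were 313, 243, 82.0 and 67.6 CPM, and the 4 TMG values 155, 122, 85.5 and 121 CPM.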

How the results depend on the processing

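Counts of the 29 genes past the 5% FDR changed by over 1.5 times as follows. DESeq2 gave 3 for TMG on D30, 10 from D12 to D30 in TMG, 14 from D30 to D70 in control, 1 from D30 to D70 in TMG and 1 for the TMG effect on D70 against D30. Without a filter the counts were 3 from D12 to D30 in TMG and 9 from D30 to D70 in control, where a fit of the compared groups alone gave 0 and a fit without both D70 replicate 2 libraries, chosen after seeing the data, gave 5 (4 lower and 1 higher). A fit without both D70 replicate 1 libraries, also chosen after seeing the data, gave 9 from D30 to D70 in control, 1 (SREBF1) from D30 to D70 in TMG and 1 (FDFT1) for the TMG effect on D70 against D30. With each library left out in turn, counts ranged from 3 to 18 and from 5 to 14 for D0 to D12 in control and in TMG, from 0 to 10 and from 0 to 2 for D12 to D30 and D30 to D70 in control, and from 0 to 1 for TMG on D70, D30 to D70 in TMG and the TMG effect on D70 against D30. The cause was not tested beyond the smaller number of libraries. For fits other than the main one and DESeq2, the share of all genes past the FDR is not given here. Their counts therefore cannot be told apart from a change across all genes.

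Directions turned for several recomputed values, including those below. Medians of sterol enzymes, regulators and fatty acid enzymes each turned for TMG on D0 and on D12 when single libraries were left out. For sterol enzymes on D12 they ran from -0.135 to 0.456. From D30 to D70 in TMG they ran from -0.315 to 0.227 for regulators and from -0.3 to 0.235 for fatty acid enzymes. Over the 29 genes they ran from -0.33 to 0.042 at that step. Left out in turn, libraries gave medians over the 29 genes of -0.062 to 0.576 for TMG on D0 and -0.154 to 0.419 for TMG on D12, medians of -0.101 to 0.271 for regulators with TMG on D70 and -0.210 to 0.303 for fatty acid enzymes from D12 to D30 in TMG, and on D30 log2 fold changes of -0.432 to 0.253 for ACAT2, -0.211 to 0.200 for MVK, -0.413 to 0.360 for LSS and -0.043 to 0.222 for TM7SF2. On D70 they gave -0.095 to 1.285 for SREBF1 and -0.543 to 1.260 for SCD. Without both D70 replicate 2 libraries the values were -0.023 for sterol enzymes, -0.207 for regulators, -0.102 for SREBF1 and -0.268 for SCD. Without a filter MVK was at -0.010 on D30. With the replicate block LSS was at -0.022 on D30. The counts past the FDR were then 14 from D12 to D30 and 4 from D30 to D70 in control, with no other count past the FDR moved. Counts at an unadjusted p under 0.05 by edgeR did move with the block. For TMG, 16 genes were lower on D30, and 4 were higher and 2 lower on D70. From D30 to D70 in TMG, 2 were higher and 1 lower. The shares of all genes with the block are not given here. Replicate differences of the 2 arms correlated across genes at 0.0453, 0.367, 0.223 and 0.607 on D0, D12, D30 and D70, and across the 29 genes at 0.329, 0.356, 0.525 and 0.747. No label ties a number to a shared culture and D0 lay under 0.1 across all genes, so the block was kept as an alternative only. With RLE factors 3 values near 0 changed sign, those of SREBF1 for TMG on D12 (-0.006 with TMM), ACLY from D12 to D30 in TMG (-0.009) and LBR for the TMG effect on D70 against D30 (-0.032). Depth limits the genes under 10 CPM in some libraries most, such as MVK, PMVK, NSDHL and HSD17B7.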
